A study of Mus musculus with 8 samples.

Results

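The let-7 family and miR-98 are 9 mature mouse microRNAs (miRNAs) that come from the 5p arm of their hairpins. They were taken by name from the 1881 mouse miRNAs on the array by a rule that uses no signal, although earlier results of these data were known when the family was picked. Sera came from male C57BL/6NJcl mice that received 7 Gy of X-rays when 8 weeks old, and from non-irradiated mice (0 Gy) of the same strain, sex and age. The irradiated sera were taken 72 h after exposure, whereas no sampling time is given in the sources used here for the non-irradiated arrays. Each dose had 4 arrays, 1 per serum sample, and nothing in the labels says whether a serum came from 1 mouse or from a pool, so that the p-values below measure the spread between these samples only. The comparison asks which of the 9 members were higher or lower in serum after 7 Gy.

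Mature let-7 miRNAs bind target mRNAs through the seed, the bases 2 to 8 from the 5′ end, and lower their translation or stability. The family was first described in Caenorhabditis elegans as a switch of larval timing, and in mammals it is abundant in differentiated cells, where it represses growth genes such as Hmga2. The RNA-binding protein Lin28 blocks the maturation of its hairpins in stem cells, and serum carries miRNAs released from blood cells and tissues in vesicles or bound to protein.

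The mature sequences are shown because they bear on what an array can tell apart: the 9 members share 1 seed and differ only behind it or, in let-7d, at the first base. All are 22 bases long, written 5′ to 3′ from RefSeq on GRCm38.p6, with the seed in capitals:
mmu-let-7a-5p: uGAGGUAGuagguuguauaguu
mmu-let-7b-5p: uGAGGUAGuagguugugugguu
mmu-let-7c-5p: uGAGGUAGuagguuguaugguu
mmu-let-7d-5p: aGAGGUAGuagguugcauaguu
mmu-let-7e-5p: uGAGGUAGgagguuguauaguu
mmu-let-7f-5p: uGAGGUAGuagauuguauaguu
mmu-let-7g-5p: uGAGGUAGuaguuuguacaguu
mmu-let-7i-5p: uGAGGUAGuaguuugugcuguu
mmu-miR-98-5p: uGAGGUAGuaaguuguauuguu

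With positions counted from 1 at the 5′ end and the base of let-7a given first, let-7c differed from let-7a by A19G, let-7e by U9G and let-7f by G12A. Let-7b differed by A17G and A19G, let-7d by U1A and U16C, let-7g by G12U and U18C, and miR-98 by G11A and A19U. Let-7i was the farthest from let-7a, with G12U, A17G, U18C and A19U. Of the 36 pairs of members, 4 differed by a single base, 10 by 2 bases and 11 by 3 bases. Whether a probe also bound a neighbour that differs by a single base was not measured on these arrays, so the values of close members may share signal.

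The hairpins lie in small clusters. On chromosome 13 the mature let-7a of Mirlet7a-1 (chr13:48538239-48538260, minus strand) lies 350 bases from let-7f of Mirlet7f-1 (chr13:48537889-48537910) and 2161 bases from let-7d (chr13:48536078-48536099). Let-7b (chr15:85707325-85707346, plus strand) lies 709 bases from let-7c of Mirlet7c-2 (chr15:85706616-85706637), both within the span of the long non-coding RNA gene Lncppara. MiR-98 (chrX:151913229-151913250, plus strand) lies 876 bases from let-7f of Mirlet7f-2 (chrX:151912353-151912374), both within the span of Huwe1, which encodes a ubiquitin ligase. The others have no other member beside them. They are let-7c of Mirlet7c-1 at chr16:77599672-77599693, let-7e at chr17:17830366-17830387 within Spaca6, let-7g at chr9:106178846-106178867 within Wdr82 and let-7i at chr10:122985698-122985719. They may still share a transcript with miRNAs outside the family, as let-7e does. Let-7a, let-7c and let-7f each come from more than 1 hairpin with the same mature sequence, so their array values sum over those loci. Of the let-7a hairpins, only Mirlet7a-1 had a locus in the annotation used. Exon or intron is not stated here, as the annotation used gives gene spans only.

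The arrays stood apart in brightness before any family member was considered. Between 378 and 687 of the 1881 mouse miRNAs were called detected at 7 Gy, and between 531 and 603 at 0 Gy. The labelling spike-in, a synthetic RNA added before labelling, was out of the scanner software's quality range on irradiated replicates 1, 3 and 4, and within it on irradiated replicate 2 and on the 4 non-irradiated arrays. Its mean log10 signal was 2.40 ± 0.66 at 7 Gy and 3.31 ± 0.41 at 0 Gy (SD, n = 4 each; exact permutation p = 0.0571, two-sided). The hybridization spike-in was in range on the 8 arrays and no spot was saturated. Its mean log10 signal was also lower at 7 Gy, at 4.16 ± 0.24 against 4.42 ± 0.08 at 0 Gy (SD, n = 4 each; exact permutation p = 0.0857, two-sided). The 8 arrays shared 1 slide, with replicates 1 and 2 of each dose in slide row 1 and replicates 3 and 4 in slide row 2, whereas the irradiated sera lay in columns 3 and 4 and the non-irradiated sera in columns 1 and 2, so that column and dose cannot be told apart. Levels of different miRNAs are not ranked here, since their probes differ in brightness for the same amount of RNA, and sums or ratios over miRNAs of an array are read only for their shifts between arrays.

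Fewer let-7 members were detected in serum after 7 Gy. The 9 members on 4 arrays gave 10 detection calls of 36 at 7 Gy and 30 of 36 at 0 Gy. Irradiated replicates 1 to 4 had 0, 7, 1 and 2 members detected, against 9, 9, 5 and 7 on the non-irradiated replicates 1 to 4. Replicate 2, the irradiated array with the brightest labelling control, therefore gave 7 of the 10 irradiated calls, and had as many members as non-irradiated replicate 4. Let-7b was detected on 3 irradiated arrays and let-7c on 2, let-7a, let-7d, let-7f, let-7g and let-7i on 1, and let-7e and miR-98 on none. None of the 9 members was detected on all 8 arrays, as against 311 of the 1881 mouse miRNAs.

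The summed signal of the family as a share of the signal of all mouse miRNAs was 0%, 0.396%, 0.00401% and 0.0179% on irradiated replicates 1 to 4, against 2.41%, 2.80%, 0.340% and 0.482% on non-irradiated replicates 1 to 4. Irradiated replicate 2 lay above non-irradiated replicate 3, so the groups overlapped. The red cell miRNAs miR-451a, miR-144-3p, miR-486a-5p and miR-16-5p together held 9.12%, 19.7%, 15.0% and 6.05% of the signal at 7 Gy, against 47.7%, 41.5%, 24.5% and 15.6% at 0 Gy, so that irradiated replicate 2 lay above non-irradiated replicate 4. All 4 of them were detected on every non-irradiated array and on irradiated replicate 2, and 2 of the 4 on the other irradiated arrays. They did not behave as 1 group. MiR-451a had scaled signals of 83.5, 14871, 32.9 and 10.6 at 7 Gy, against 67369, 39046, 2762 and 5570 at 0 Gy, whereas the sum on irradiated replicates 1, 3 and 4 was nearly all miR-486a-5p (2922 of an unscaled 2941 on replicate 1). None of the 4 passed the test described below, with log2 fold changes of -5.34 for miR-451a (limma adjusted p = 0.129), -2.13 for miR-16-5p (0.434), -0.46 for miR-486a-5p (0.705) and -0.0048 for miR-144-3p (0.982). That test sets scaled signals under 100 to 100. MiR-144-3p was under 100 on irradiated replicates 1, 3 and 4 and non-irradiated replicates 3 and 4. Its other scaled signals were 105 on irradiated replicate 2 and 104 and 102 on non-irradiated replicates 1 and 2. The small fold change of miR-144-3p therefore depends on that limit. The miRNAs listed as platelet and endothelial (miR-126a-3p, miR-223-3p, miR-191-5p) held 0.00567% to 0.667% at 7 Gy and 0.0218% to 0.873% at 0 Gy. On irradiated replicates 1, 3 and 4 only miR-223-3p of these was detected. The lymphocyte miRNAs (miR-150-5p, miR-342-3p, miR-181a-5p) held 0.0948% to 0.336% at 7 Gy and 0.210% to 0.574% at 0 Gy. On irradiated replicates 1 and 3 only miR-342-3p of these was detected. The liver miRNAs (miR-122-5p, miR-192-5p) held 0% to 1.13% at 7 Gy and 0.00515% to 0.490% at 0 Gy. At 7 Gy they were detected on replicate 2 alone. The part of blood cells, of spike-in brightness and of RNA amount in the values of the family was not tested, and fewer cells of a type and less RNA released per cell cannot be told apart in serum.

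The signals below are scaled, meaning that each array was multiplied by 1 factor so that the 90th percentile of its mouse miRNAs was the same. A member that was not called detected has no signal of its own, and the software writes 0.1 for it before scaling.

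Let-7b, which in mouse neural stem cells represses the nuclear receptor Tlx and cyclin D1, had no detected signal on irradiated replicate 1 and scaled signals of 146, 6.90 and 19.4 on irradiated replicates 2, 3 and 4, against 1050, 1030, 394 and 349 on non-irradiated replicates 1 to 4. Every irradiated array lay below every non-irradiated array (two-sided exact permutation p = 0.0286, the smallest that 4 against 4 arrays can give). Let-7c, encoded beside let-7b on chromosome 15, was detected on irradiated replicates 2 and 4 with scaled signals of 52.6 and 2.34, against 639, 598, 72.5 and 78.9 on the non-irradiated replicates. Its groups did not overlap either (exact permutation p = 0.0286). The lowest of these irradiated values were close to background. For let-7b on replicate 3 no spot of either probe was above background. For let-7c on replicate 4 only 3 of 15 spots of a single probe were. Before scaling, irradiated replicate 2 had a let-7b signal of 386, above the 370 and 375 of non-irradiated replicates 3 and 4, and a let-7c signal of 139, above their 68.2 and 84.9, so that without scaling the groups of both members overlapped.

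Let-7i, which in human bile duct cells represses the receptor TLR4, was detected at 7 Gy on replicate 2 only, with a scaled signal of 113, against 1500, 1115, 41.1 and 47.8 on non-irradiated replicates 1 to 4. That irradiated array lay between the bright and the dim non-irradiated pair, so the groups overlapped. Let-7g reached 27.6 on irradiated replicate 2 and was not detected on the other irradiated arrays, against 520, 369, 3.89 and 7.52 at 0 Gy. Let-7a reached 16.2 on irradiated replicate 2 alone, against 225, 225, 7.85 and 15.8 at 0 Gy. In both, irradiated replicate 2 was above the dim non-irradiated pair.

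Let-7d, whose loss has been linked to lung fibrosis, had a scaled signal of 4.68 on irradiated replicate 2, against 84.4, 59.0 and 3.57 on non-irradiated replicates 1, 2 and 4. Let-7f, described as promoting vessel growth in human endothelial cells, had 4.26 on irradiated replicate 2, against 62.7, 69.3 and 5.33 on non-irradiated replicates 1, 2 and 4. Neither was detected on non-irradiated replicate 3. Let-7e, which is made from a transcript shared with miR-99b and miR-125a, was detected on no irradiated array and had 5.25 and 5.89 on non-irradiated replicates 1 and 2. MiR-98 was likewise detected on no irradiated array and had 7.13 and 7.19 on non-irradiated replicates 1 and 2. No fold is given for let-7e and miR-98, because they were detected on 2 of 4 non-irradiated arrays. With the other 2 arrays counted as 0.1, their mean log2 scaled values at 0 Gy were -0.42 and -0.24. Both are below 0.44, the mean over the irradiated arrays of the lowest log2 scaled signal detected on each.

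**Figure D1:**
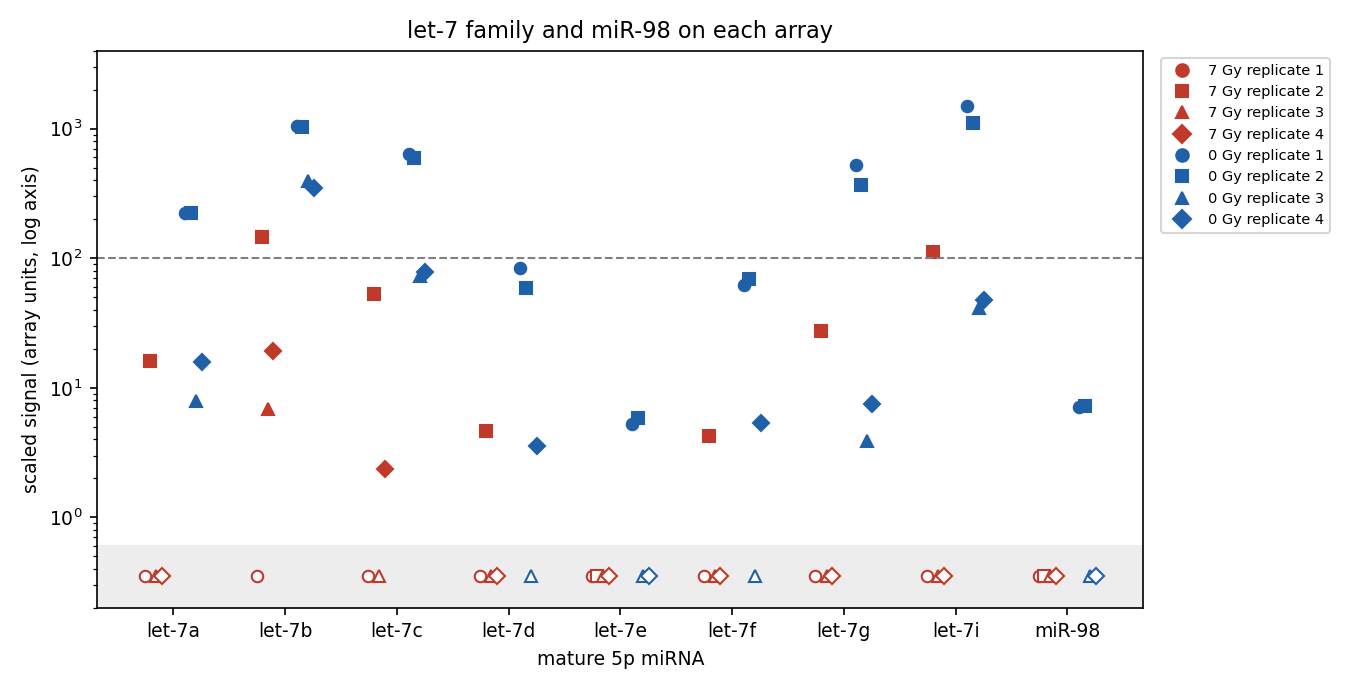
Scaled signal (log axis, array units) of each of the 9 members on the 4 irradiated arrays (red, left) and the 4 non-irradiated arrays (blue, right), with a marker shape for each replicate number. Open markers in the grey band were not called detected and have no level there, and a dashed line marks 100, the value to which lower signals were set for the test. Non-irradiated replicates 1 and 2 are the highest points of every member, and irradiated replicate 2 is the highest red point of the 7 members detected at 7 Gy.

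For the test across all miRNAs, scaled signals under 100 were set to 100, the lower cut-off named in the study's methods, and compared on the log2 scale. A miRNA entered if it was detected on at least 3 arrays and was not at the floor on all 8, which left 208 miRNAs and 5 of the 9 members. Let-7d and let-7f were at the floor on all arrays, and let-7e and miR-98 were detected on 2 arrays. Let-7b fell by 2.50 on the log2 scale (SE 0.42, limma with Benjamini-Hochberg adjustment over the 208 miRNAs, adjusted p = 0.0371), with a mean log2 value of 6.78 at 7 Gy and 9.28 at 0 Gy. It was 1 of 4 miRNAs called lower among the 208, a background of 1.92%, and 4 others were called higher. As 3 of its 4 irradiated arrays were at the floor, this size depends on the floor, and it was -4.75 with a floor of 10 (adjusted p = 0.0448).

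The other 4 tested members did not pass the test. Their log2 fold changes, 7 Gy over 0 Gy, were -1.80 (SE 0.98) for let-7i, -1.31 (SE 0.70) for let-7c, -1.07 (SE 0.58) for let-7g and -0.59 (SE 0.32) for let-7a, each with an adjusted p of 0.259. At 7 Gy let-7a, let-7c and let-7g were at the floor on the 4 arrays. The median log2 fold change of the 5 tested members was -1.31, beside 0.17 over the 208 miRNAs, and nothing is read from it, since a member at the floor on every irradiated array enters the test only through brighter non-irradiated arrays and cannot come out higher. Counting arrays in place of fold changes, 2 of the 9 members, let-7b and let-7c, had the 4 irradiated arrays below the 4 non-irradiated arrays on the scaled signal, against 19 of the 208 tested miRNAs (9.13%). Both are among the 5 tested members and are counted in the 19. Let-7c entered the test only through brighter non-irradiated arrays, so nothing is read from this count either.

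The call of let-7b did not hold in every setting. With no scaling between arrays the adjusted p was 0.308 (log2 fold change -2.78), with scaling to the labelling spike-in it was 0.495 (-1.45), with that spike-in as a covariate 0.188 (-1.87), and without the 3 arrays whose labelling control was out of range 0.776 (-2.09). Leaving out irradiated replicate 1, 3 or 4 or non-irradiated replicate 1 or 2 also ended it, with adjusted p from 0.0793 to 0.148.

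**Figure D2:**
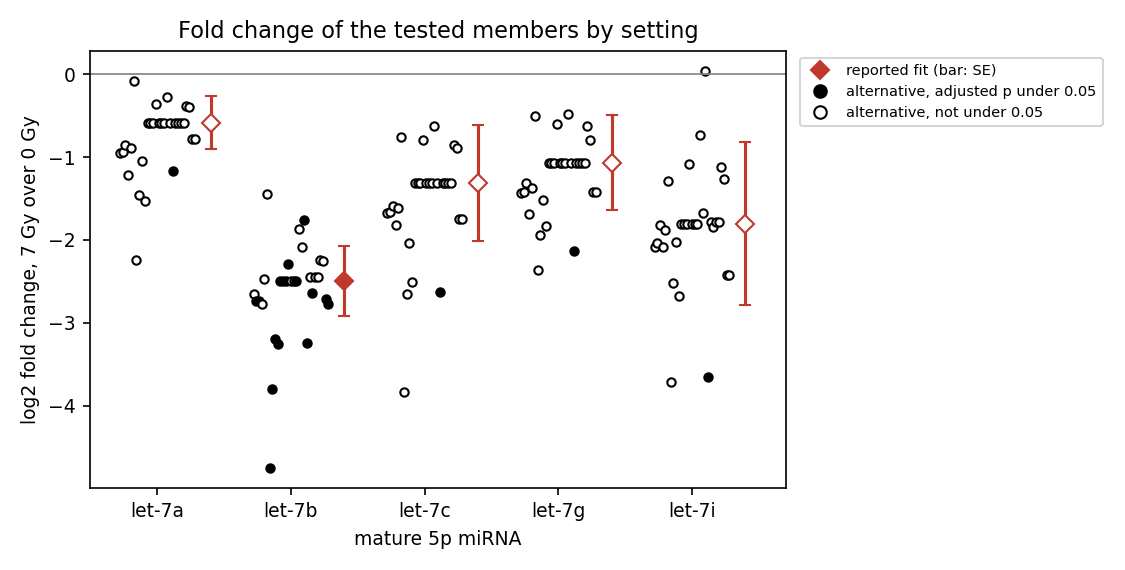
Log2 fold change (7 Gy over 0 Gy) of the 5 tested members, in the reported fit (red diamonds, with the SE) and the alternatives (circles). Markers are filled where the adjusted p was under 0.05. The fit of the scaled signals with no floor is left out. Let-7b lay between -4.75 and -1.45 in the alternatives drawn, and 1 point, let-7i without the non-irradiated arrays of slide row 1, lay above 0 at 0.043.

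The slide rows divided the members more than they divided most miRNAs. Among the non-irradiated arrays, the 445 miRNAs detected on all 4 had a median ratio of 0.569 of the scaled signal on replicates 1 and 2 (slide row 1) over that on replicates 3 and 4 (slide row 2), and 13 of the 445 (2.92%) had a ratio above 10. The 5 members among them had ratios of 77.9 for let-7g, 29.4 for let-7i, 19.0 for let-7a, 8.17 for let-7c and 2.80 for let-7b, so that 3 of the 13 were members. Only 1 of the 445 miRNAs had a higher ratio than let-7g, whereas 44 had a higher ratio than let-7b. These are differences within non-irradiated serum, with no dose between them, and with 2 arrays a row they carry no test. Each row held different sera, so row and serum cannot be told apart. On the irradiated arrays, 0 and 7 members were detected in slide row 1, and 1 and 2 in slide row 2.

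The dose comparison was therefore also read within each row. In slide row 1 the difference in mean log2 value after the floor, 7 Gy minus 0 Gy, was -3.61 for let-7i, -3.10 for let-7b, -2.63 for let-7c, -2.13 for let-7g and -1.17 for let-7a. In slide row 2 it was -1.89 for let-7b. Let-7a, let-7c, let-7g and let-7i were at the floor at both doses there, so the floor hides any difference. Before the floor, let-7a, let-7g and let-7i were detected on both arrays of that row at 0 Gy and on neither at 7 Gy. Let-7c was 72.5 and 78.9 at 0 Gy, against 2.34 on irradiated replicate 4 and no detection on replicate 3. With the slide row as a block in the fit, let-7b kept its fold change with a smaller error (SE 0.28, limma adjusted p = 0.00888), and the other 4 members had an adjusted p from 0.135 to 0.145. Without the non-irradiated arrays of slide row 2, all 5 tested members were called lower (limma adjusted p from 0.000310 to 0.00276), among 16 miRNAs called lower of 200 tested. As only their 2 bright non-irradiated arrays then remained, against irradiated arrays that were nearly all at the floor, these calls follow from that choice and add no support. Without those of slide row 1 let-7b was still called lower (adjusted p = 0.0402), let-7i stood at a log2 fold change of 0.043 (adjusted p = 0.854), and let-7a, let-7c and let-7g were at the floor on all arrays. The let-7i value comes from irradiated replicate 2 alone, at a scaled signal of 113, as its other arrays in that fit were at the floor. Both fits without the non-irradiated arrays of 1 slide row were chosen after seeing the data.

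The members did not keep a fixed ratio to each other. The ratio of a member to let-7b on the same array does not depend on the scaling, although its size reflects the probes and not the amounts, so only its shifts between arrays are read. Let-7i over let-7b was 0.770 on irradiated replicate 2, against 1.43, 1.08, 0.104 and 0.137 on non-irradiated replicates 1 to 4. Let-7g over let-7b was 0.189 on irradiated replicate 2, against 0.496, 0.359, 0.00988 and 0.0216 at 0 Gy, and let-7a over let-7b was 0.111, against 0.214, 0.218, 0.0199 and 0.0453. For all 3 the irradiated array lay between the non-irradiated pair of slide row 1 and that of slide row 2.

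Let-7c over let-7b varied less than the ratios of let-7i, let-7g and let-7a. The ratio was 0.360 and 0.121 on irradiated replicates 2 and 4, against 0.609, 0.581, 0.184 and 0.226 on non-irradiated replicates 1 to 4. Let-7d over let-7b was 0.0320 on irradiated replicate 2, against 0.0804, 0.0573 and 0.0102 on non-irradiated replicates 1, 2 and 4. Let-7f over let-7b was 0.0291 on irradiated replicate 2, against 0.0597, 0.0673 and 0.0153 on those 3 non-irradiated arrays. Since no member was detected on all 8 arrays, none of these ratios could be compared between the doses over 4 against 4 arrays.

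**Figure D3:**
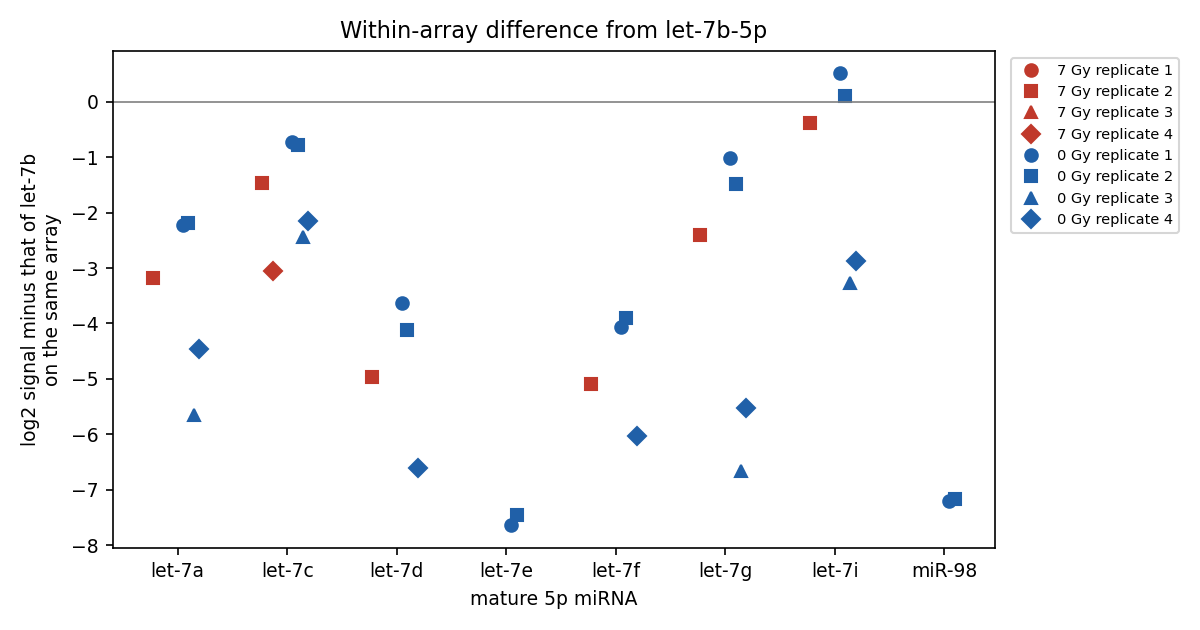
Log2 signal of each member minus that of let-7b on the same array, for irradiated arrays (red, left) and non-irradiated arrays (blue, right), drawn where both were detected. The differences are lower on non-irradiated replicates 3 and 4 than on replicates 1 and 2 for every member detected there, and irradiated replicate 2 lies between them in let-7a, let-7c, let-7d, let-7f, let-7g and let-7i.

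Base composition was set beside detection and the slide-row ratios at 0 Gy. Let-7b has 10 G or C bases of 22, let-7c, let-7d, let-7e and let-7i have 9, let-7a and let-7g have 8, and let-7f and miR-98 have 7. Among members with a slide-row ratio, let-7b had the most G or C bases and the lowest ratio (2.80). The order did not hold throughout, with 29.4 for let-7i and 8.17 for let-7c at 9 bases, and 77.9 for let-7g and 19.0 for let-7a at 8. Let-7b was detected on 7 arrays and let-7c on 6, whereas miR-98 and let-7e were detected on 2, so members of the same count differed in detection. Over the 381 of 445 miRNAs with a sequence in the table used (85.6%), the Spearman correlation of GC percent with the log2 ratio of slide row 1 over slide row 2 at 0 Gy was -0.358, a description across miRNAs of the same 4 arrays. The members have 31.8% to 45.5% GC, below the median of 58.3% over those miRNAs.

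Each member was read by 2 probes with 15 spots each, and the ratio of the brighter to the dimmer probe gives a further view within an array. It is given where all 15 spots of both probes were above background. For let-7b it was 1.84 and 1.78 on irradiated replicates 2 and 4, against 1.76 and 1.74 on non-irradiated replicates 1 and 2 and 2.05 and 1.89 on replicates 3 and 4. For let-7c it was 3.44 on irradiated replicate 2, against 3.02 and 3.03 on non-irradiated replicates 1 and 2 and 7.95 and 5.55 on replicates 3 and 4. For let-7i it was 2.43 on irradiated replicate 2, against 2.37 and 2.25 on non-irradiated replicates 1 and 2 and 3.23 and 2.78 on replicates 3 and 4. For these 3 members the same pair of probes thus gave larger ratios on non-irradiated replicates 3 and 4, where the members were dim, than on replicates 1 and 2. In let-7a, let-7d, let-7f and let-7g the dimmer probe was not above background on all spots of the dim arrays, so no such comparison was made.

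The opposite arms of the same hairpins were dim on every array. Of the 11 let-7 and miR-98 3p arms on the array, 7 were detected on no array. The 3p arm of let-7b was detected on all 8 arrays, and its unscaled signals were 5.58, 7.35, 5.65 and 9.59 on irradiated replicates 1 to 4, against 7.56, 7.32, 10.1 and 7.63 on the non-irradiated replicates. The 3p arm of let-7f from Mirlet7f-1 ranged over 5.94 to 10.4 at 7 Gy and 7.88 to 10.9 at 0 Gy. That of let-7d ranged over 2.62 to 18.8 at 7 Gy, with the highest on replicate 2, and over 5.46 to 13.0 at 0 Gy. The doses overlapped in all 3. On the scaled signal they overlapped too, but the means were higher at 7 Gy. They were 15.1 ± 11.8 at 7 Gy and 6.01 ± 3.65 at 0 Gy for let-7b, and 16.3 ± 12.9 at 7 Gy and 6.67 ± 3.97 at 0 Gy for let-7f (SD, n = 4 each). The scaled let-7d arm ran from 4.45 to 19.7 at 7 Gy and from 4.52 to 5.98 at 0 Gy. The direction of the difference in these arms thus depends on the scaling. None of these arms was bright enough to pass the floor and be tested. The 3p arm of let-7e was detected on 3 arrays with a signal of at most 1.71. Let-7k and miR-1961 also share the seed, and neither was detected on any array.

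**Figure D4:**
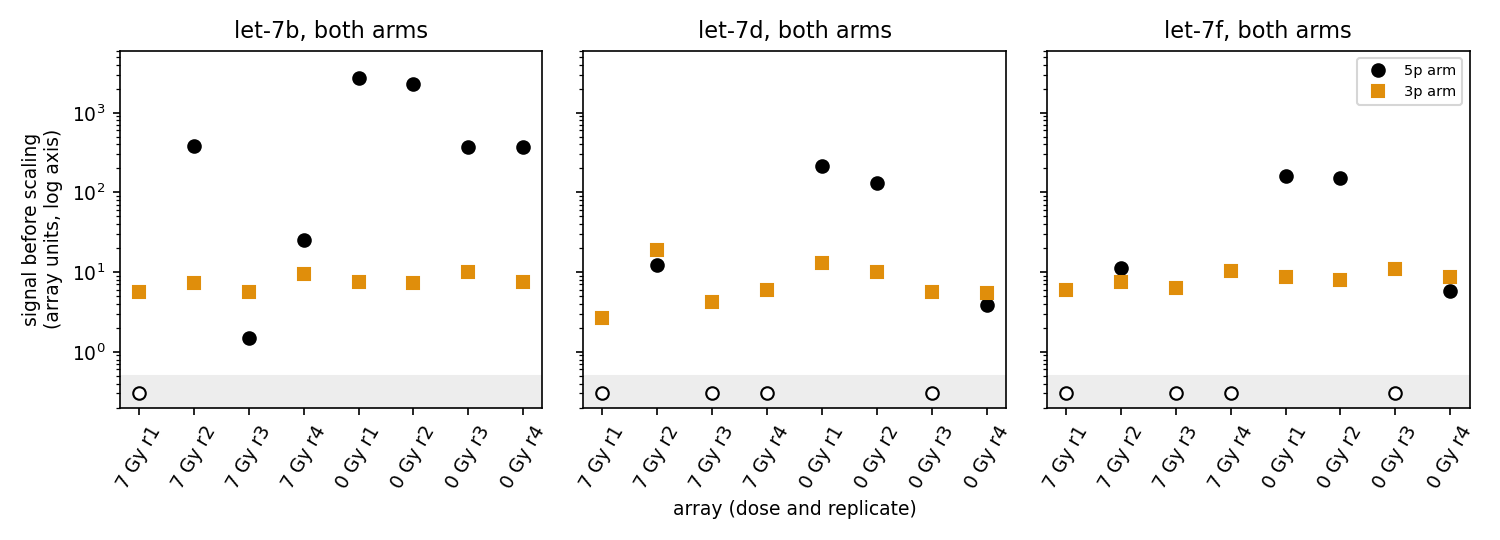
Signal before scaling (log axis, array units) of the 5p arm (black circles) and the 3p arm (orange squares) of let-7b, let-7d and let-7f on the 4 irradiated arrays (left in each panel) and the 4 non-irradiated arrays (right); r is the replicate, and open markers in the grey band were not detected. Before scaling the 3p arms lie between 2.62 and 18.8 on the 8 arrays, and let-7b-5p runs from not detected on irradiated replicate 1 to 2692 on non-irradiated replicate 1.

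MiRNAs of the transcripts that also carry let-7 hairpins were few above the floor. Of miR-99a-5p, miR-99b-5p, miR-100-5p, miR-125a-5p and miR-125b-5p, only miR-125b-5p could be tested. It was detected on irradiated replicate 2 alone, with a scaled signal of 647, against 1031, 1107, 101 and 1027 on the non-irradiated replicates. Its log2 fold change was -1.88 (SE 0.99, limma adjusted p = 0.259). The 5 gave 6 detection calls of 20 at 7 Gy and 18 of 20 at 0 Gy, and among the non-irradiated arrays miR-125b-5p was dim on replicate 3 and bright on replicate 4, unlike the let-7 members, which were dim on both.

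Likeness to let-7b, the member detected on most arrays, was measured over the log2 unscaled signals of the 8 arrays for 350 other miRNAs detected on at least 7 arrays, whose median Pearson correlation with let-7b was 0.521. The highest were miR-140-3p (r = 0.978), miR-25-3p (0.976), miR-92a-3p (0.975), miR-361-5p (0.973) and miR-5132-5p (0.970), which are descriptions over arrays that share a wide range of brightness. Of these, miR-140-3p and miR-25-3p were called lower at 7 Gy, with log2 fold changes of -2.71 (SE 0.55) and -3.96 (SE 0.81) and a limma adjusted p of 0.0474 for each. MiR-92a-3p stood at -2.90 (SE 0.62, limma adjusted p = 0.0510), and miR-361-5p and miR-5132-5p were not tested. MiR-140-3p, miR-25-3p and let-7b were among the 4 miRNAs called lower of the 208 tested. As these miRNAs were picked for following let-7b over the same arrays, and let-7b was called lower, their direction adds no support.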

How the data were processed

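Serum RNA (30 ng per array) was labelled with cyanine 3 and hybridised by the authors to 1-colour Agilent mouse miRNA arrays. The deposited intensity values come from Agilent Feature Extraction (version 11.5 in the submitters' processing notes, an earlier one in the paper's methods), in which the authors had background subtracted and the probes of a miRNA summed, with 0.1 where it was not detected and no normalization between arrays. Spot intensities were used for the probe ratios and in alternatives.

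For the test, 1 factor per array brought the 90th percentile of the 1881 mouse miRNAs to the same value, 100 replaced any lower value, and the result was converted to log2, as the study's methods state a percentile shift and a lower cut-off of 100. Whether that cut-off replaced or removed values is not stated. The doses were tested in limma 3.58.1 (R 4.3.3; lmFit, then eBayes), Benjamini-Hochberg adjusted at 0.05, over miRNAs detected on at least 3 arrays and not at the floor on all 8. Single miRNAs were compared by exact permutation over the 70 arrangements. The fit was tried on simulated independent values of miRNAs detected on all 8 arrays, without the floor. As no member was detected on all 8, this does not test the fit of the members. Sequences and loci come from RefSeq (GRCm38.p6). Arrays hold no counts, so the number of arrays limits the precision. Figures were drawn with matplotlib 3.10.9.

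Members, lists and tests were chosen with earlier results of these data known. All 9 members are named, and the cell type miRNAs beside their summed shares. Then come other miRNAs with the same seed, 3p arms detected on at least 3 arrays, tested miRNAs of the same transcripts, and the 5 most like let-7b. That likeness replaced one to members detected on all 8 arrays, as there were none. Alternatives covered the scaling, floor, detection filter, spot signals, normexp (offset 50), the methods' t-test, array weights, the variance prior, blocks and leaving out arrays.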

Additional observations from a re-analysis of the deposited data

Results flagged for a closer look

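The family's share of all signal on irradiated replicate 2, 0.396%, stood apart by Dixon's test from the other 3 irradiated arrays, which had at most 0.0179% and, on replicate 1, 0% because no member was detected. Chance flags about 1 in 20 groups, and 1 of the 7 looked at was flagged, counting the share at each dose and the members detected on all 4 arrays of a dose. Single members at 7 Gy were not tested in this way, since none was detected on all 4 irradiated arrays. Replicate 2 was the one irradiated array whose labelling spike-in was in range, and it had the most detected miRNAs of the 8 arrays (687). The part of labelling in its values was not tested. Without it, 5 members in place of 2 had groups that did not overlap, beside 57 in place of 19 of the 208 tested miRNAs, and let-7b stood at -2.63 (limma adjusted p = 0.00844).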

How the results depend on the processing

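Let-7a, let-7c and let-7g were at the floor on every irradiated array, so their negative sign was fixed in most alternatives. Let-7b was below 0 in all 30, and let-7i in all but 1, as it stood at 0.043 without the non-irradiated arrays of slide row 1. Let-7b was past the adjusted threshold in 16 of 30 alternatives, with an adjusted p from 0.000898 to 0.776. Those 16 include the looser detection filters, which tested the same 208 miRNAs with the same result. They also include both fits chosen after seeing the data, each without the non-irradiated arrays of 1 slide row. The number of members called lower, 1 in the reported fit, was 0 with the 90th percentile of miRNAs detected on all arrays, no scaling, hybridization or labelling spike-in scaling, no floor, the replicate block, the labelling covariate and without the arrays with labelling out of range, 5 without the non-irradiated arrays of slide row 2, and 0 to 1 when leaving out 1 array. Over all miRNAs, 4 lower in the reported fit became 1 with the 90th and 11 with the 75th percentile of miRNAs detected on all arrays, 19 with a floor of 10, 9 with spot signals, 11 with normexp, 14 with array weights, 14 with the methods' t-test at its unadjusted threshold and 1.5-fold (1, and 0 members, after Benjamini-Hochberg adjustment), 8 with the slide row as a block, 2 and 16 without the non-irradiated arrays of slide rows 1 and 2, and 0 with no scaling, hybridization or labelling spike-in scaling, no floor, the replicate block, the labelling covariate and without the arrays out of range. Leaving out 1 array gave 1 to 14, with 14 without irradiated replicate 2 and 1 without irradiated replicate 3 or 4 or non-irradiated replicate 1 or 2. At an unadjusted p under 0.05, 17 were lower with no scaling, 11 and 3 with the hybridization and labelling spike-ins, 84 with no floor, 18 with the replicate block, 21 with the covariate and 3 without the arrays out of range. Calls split into 4 higher and 4 lower in the reported fit, 6 and 1 with the 90th percentile, 7 and 11 with the 75th, 2 and 4 with quantile normalization, 61 and 14 with array weights, 56 and 14 without irradiated replicate 2, 18 and 8 with the slide row as a block and 0 and 4 with the trend and robust prior. The median log2 fold change over the tested miRNAs was 0.17, against -0.09 with no scaling and 0.50 with the labelling spike-in. Members with groups that did not overlap, 2 on the scaled signal beside 19 of 208 miRNAs, were 1 with the 90th or 75th percentile of miRNAs detected on all arrays or the hybridization spike-in (beside 14, 19 and 10), 0 with no scaling or the labelling spike-in (11 and 4), and 2 to 5 when leaving out 1 array (19 to 57). The causes were not tested.

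The replicate numbers did not pair the arrays: the correlation of same-numbered deviations was -0.337 to 0.553, and 1 of 4 irradiated arrays correlated best with its own number. With the replicate block let-7b had an adjusted p of 0.0599. Only miRNAs detected on all 8 arrays left no member to test, and comparing pairs of members between the doses could not be run for the same reason. Apart from let-7b and let-7i, the members were under the floor of 100 on every irradiated array, and 10 of 36 member signals at 7 Gy were called detected, so the size of a difference below the floor is not measured here.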
